A study of Mus musculus with 4 samples.

Results

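The proteasome genes were followed in tumour-associated macrophages of imatinib-treated and vehicle-treated mice. The proteasome is the barrel-shaped protease that degrades ubiquitin-tagged proteins. Its core is built from alpha rings and from beta rings that carry the catalytic sites, and a cap made of a base and a lid recognises, unfolds and feeds in the substrate. In cells exposed to interferon-gamma, and in many leukocytes at rest, the constitutive catalytic subunits (genes Psmb5, Psmb6 and Psmb7) are replaced in newly built cores by the inducible ones (Psmb8, Psmb9 and Psmb10). This immunoproteasome, together with the PA28 activator encoded by Psme1 and Psme2, favours peptides that fit major histocompatibility complex (MHC) class I molecules, and macrophages are among the cells that use it.

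Members were taken by symbol, as genes starting with Psma, Psmb, Psmc, Psmd, Psme, Psmf or Psmg and a digit, and each was represented by its brightest probe set that carries 1 gene symbol. This gave 48 of the 12393 genes with such a probe set. RefSeq lists 51 protein-coding mouse genes of this pattern. The 3 others are Psmb11, the catalytic subunit of the thymus, which is not analysed here, and Psme2 and Psme2b, which share a single probe set and are therefore given only together. Of the 48, 46 encode subunits, activators, an inhibitor or assembly chaperones, while Psmc3ip and Psme3ip1 encode interaction partners that match by symbol alone. All 48 passed the filter on low signals, although Psma8, an alpha subunit of the testis, did so narrowly, with signals of 60.8 to 114.4 against a filter at 79.8. Psmc3ip passed it through the vehicle arrays alone, so it could only come out lower. Its difference is plotted below and counted in the summaries of the 48 members, but nothing is drawn from it alone.

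The cells were macrophages sorted by flow cytometry from gastrointestinal stromal tumours (GIST) of GIST mice, for which the labels name no strain, allele or age. The groups were vehicle and imatinib, a tyrosine kinase inhibitor given at 600 mg/L in the drinking water, each for 2 weeks. Sorted cells of the 8 mice in a group were pooled, and 200 ng of RNA was hybridised to each Affymetrix array, with 2 arrays per group. By the design text a pool was run in duplicate, whereas the titles speak of biological replicates. The p-values therefore cover variation between arrays, which can be purely technical, and the small number of arrays limits the precision. A log2 difference is the imatinib mean minus the vehicle mean of log2(signal + 32), given with its SE (n = 2 arrays per group), and a fold is that difference on the linear scale.

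Several features of the arrays moved with treatment and touch every result below. Of 14 macrophage markers tested, 12 were higher and 0 lower with imatinib, and their summed signal was 145368 to 148542 with vehicle and 179353 to 189710 with imatinib. All 13 epithelial markers were lower, with a summed signal of 35840.1 to 36146 against 7117 to 7384. Over all tested genes 6.80% were called higher and 8.73% lower. No marker of either list was at 0, although the macrophage marker Itgam passed the filter on low signals through the imatinib arrays alone and the epithelial marker Cldn4 through the vehicle arrays alone. The Gapdh 3' to 5' ratio, a measure of RNA integrity, was 2.91 and 2.76 on vehicle arrays against 2.34 and 2.09 on imatinib arrays. The part of these shifts in the proteasome values was not tested, and in pooled bulk samples fewer cells of a type and less RNA per cell cannot be told apart.

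The promoters were searched because inducible and constitutive subunits are known to be controlled through different elements. Of the 48 members, 40 have a promoter in the RefSeq table (GRCm38.p6), and the 250 bases before each start were searched on both strands for 2 motifs. GAAANNGAA, an IRF element, was in 6.38% of the 47 promoters of the family and 7.13% of all 32851. TGACNNNGC, the antioxidant response element read by Nfe2l1 and Nfe2l2, was in 10.6% and 10.2%. Matches of different motifs did not overlap in these promoters. Both shares were close to those of all promoters. GAAANNGAA was in Psmb3, Psmd4 and Psmd9, and TGACNNNGC in Psmb5, Psmb6, Psmc6, Psmd12 and Psmd9. Psmb8, Psmb9, Psmb10 and Psme1 were not among the genes with a match. Whether each of them is among the 40 members with a promoter is not given here, so their sequences may not have been searched. A match is a description of the letters and not a binding site. In a searched promoter, no match says only that these letters are not in this window. The promoters of Psmb5 and Psmb6 are shown because they belong to constitutive catalytic genes with a match. The matches are in capitals, for Psmb5 at chr14:54617996-54618245 (minus strand) and Psmb6 at chr11:70525107-70525356 (plus strand), each 5′ to 3′:
Psmb5: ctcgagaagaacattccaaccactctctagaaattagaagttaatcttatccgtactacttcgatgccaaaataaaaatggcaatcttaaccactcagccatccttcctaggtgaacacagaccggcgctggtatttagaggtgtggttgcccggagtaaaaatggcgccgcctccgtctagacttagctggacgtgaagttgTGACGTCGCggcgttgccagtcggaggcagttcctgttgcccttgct
Psmb6: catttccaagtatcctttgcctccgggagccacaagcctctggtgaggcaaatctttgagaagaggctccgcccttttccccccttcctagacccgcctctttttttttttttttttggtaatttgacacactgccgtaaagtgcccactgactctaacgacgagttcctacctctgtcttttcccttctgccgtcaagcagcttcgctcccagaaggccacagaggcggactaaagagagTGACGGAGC

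Most proteasome transcripts differed little between vehicle and imatinib. None of the 48 members was higher at an adjusted p below 0.05 (limma, Benjamini-Hochberg over 8145 genes), and 2 were lower, the core gene Psmb4 and the lid gene Psmd6. Among all tested genes 6.80% were called higher and 8.73% lower. At an unadjusted p below 0.05, 0 members were higher and 6 lower (5 without Psmc3ip), where 12.7% of all tested genes were higher and 15.4% lower (28.1% in either direction). The median log2 difference was 0.01 over the members and -0.02 over all tested genes, with 25 members above 0. Differences within 0.25 on the log2 scale were seen for 41 members (85.4%), against 60.4% of all tested genes. The SE was smaller for the members, with a median of 0.10 against 0.15. The 95% interval of the difference lay within 0.5 either way, which is 1.41-fold, for 37 of the 48 (77.1%), against 41.9% of all tested genes. Most members were bright, and these shares were not compared among genes of equal signal. The part of signal level in them was not tested.

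**Figure D1:**
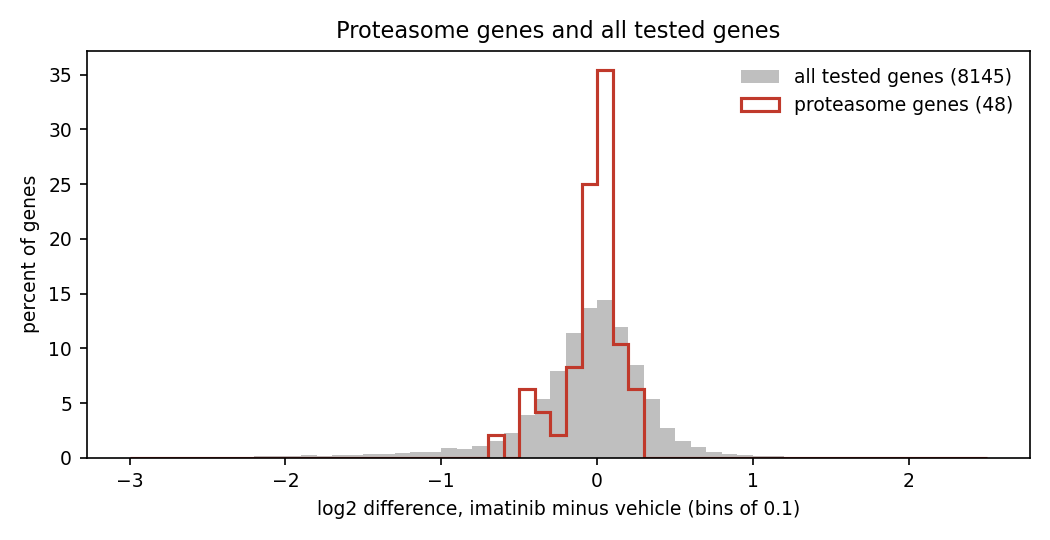
Histogram of log2 differences (imatinib minus vehicle, bins of 0.1, x axis) as percent of genes (y axis) for the 8145 tested genes (grey) and the 48 proteasome genes (red line). Apart from Psmc3ip, which passed the filter through the vehicle arrays alone, the proteasome genes lie between -0.49 and 0.26, near the centre of the wider distribution of all genes.

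This picture depends on the scale. With array medians set equal each log2 difference is larger by 0.16, 39 of 48 members were above 0 and none was called, while 12.9% of all genes were called higher and 6.04% lower. On a scale that sets the mean of the macrophage markers equal on all arrays, called the macrophage-marker scale below, each difference is lower by 0.50. The markers were uneven, from -0.05 for Ctss to 1.16 for Mertk, so 0.50 is their mean and no common shift. They include Itgam (0.97), which passed the filter through the imatinib arrays alone. On that scale all 48 members were below 0 and 45 were called lower (93.8% of them), beside 70.1% of all tested genes. None was called higher, beside 1.17%. The median difference was then -0.50 for the members and -0.52 for all genes. With array medians set equal the members' median was 0.17 and that of all genes 0.14.

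On the deposited scale the inducible subunits had slightly higher values on the imatinib arrays but did not pass the test. Psmb8, the inducible chymotrypsin-like subunit, had signals of 3530.04 and 3067 with vehicle and of 4080.4 and 3552 with imatinib. Both imatinib values exceeded both vehicle values, the lower of them by a small margin. The log2 difference was 0.21 ± 0.10 (limma adjusted p = 0.20; 95% interval -0.01 to 0.43). It was 0.11 without vehicle replicate 2 or without imatinib replicate 1, and 0.31 without either of the other arrays. Psmb9 read 2417 and 2426 with vehicle and 2670.4 and 2639.6 with imatinib. These arrays did not overlap, and the difference was 0.13 ± 0.08 (limma adjusted p = 0.34). Psmb10 read 2220.05 and 2229.7 against 2382 and 2508, again without overlap, with a difference of 0.13 ± 0.08 (limma adjusted p = 0.34). Psme1, which encodes the alpha subunit of the PA28 activator, read 3619 and 3793 against 4271 and 4098. Its groups were separate and differed by 0.17 ± 0.08 (limma adjusted p = 0.18, 95% interval -0.00060 to 0.35). Arrays higher with imatinib and without overlap, as for these 4 genes, were seen for 26.1% of all tested genes. On the deposited scale the 95% intervals of these 4 genes reached 1.34-fold for Psmb8, 1.24-fold for Psmb9, 1.25-fold for Psmb10 and 1.27-fold for Psme1. They cover variation between arrays only, so they exclude no larger effect of treatment. With array medians set equal the differences were 0.37 for Psmb8, 0.29 for Psmb9, 0.29 for Psmb10 and 0.33 for Psme1. None was called on that scale (limma adjusted p = 0.068, 0.14, 0.13 and 0.092). With the macrophage markers set equal their differences turned negative, from -0.37 for Psmb9 to -0.30 for Psmb8, and all 4 were called lower (limma adjusted p = 0.017 for Psmb8, 0.0020 for Psmb9, 0.0030 for Psmb10 and 0.0023 for Psme1), as 70.1% of all tested genes were. The probe set shared by Psme2 and Psme2b, which encode or resemble the beta subunit of PA28, read 3278 and 3545.03 with vehicle and 3517.5 and 3423 with imatinib. The groups overlapped and the difference was 0.03 ± 0.08 (limma adjusted p = 0.90 over probe sets; 95% interval -0.16 to 0.21).

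**Figure D2:**
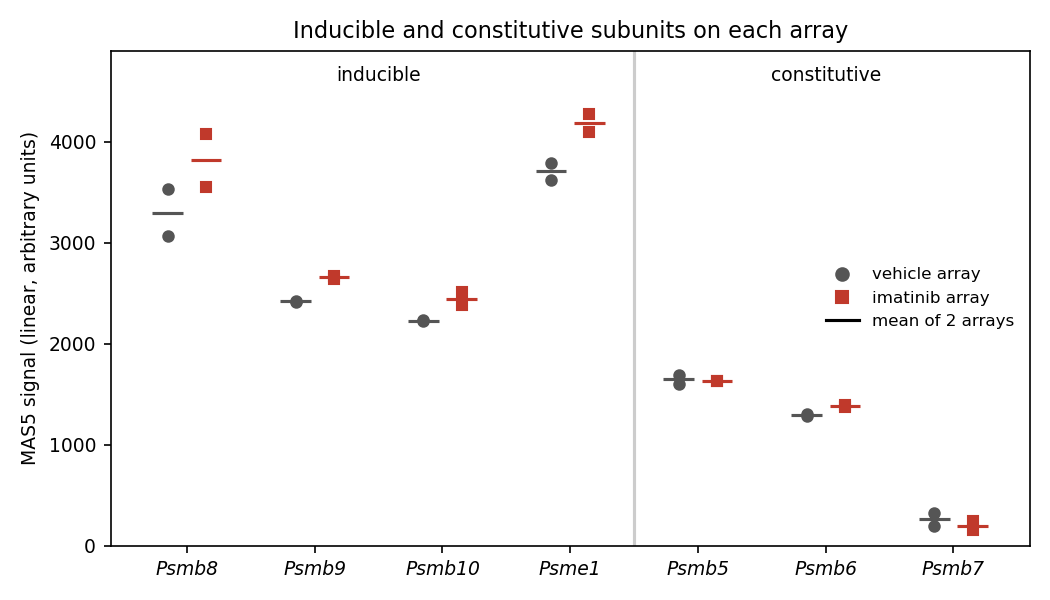
MAS5 signal (linear, y axis) of the 4 inducible and 3 constitutive genes (x axis) on each vehicle array (grey circles) and imatinib array (red squares), with a bar at the mean of the 2 arrays. The imatinib points lie above the vehicle points for Psmb8, Psmb9, Psmb10, Psme1 and Psmb6 and overlap them for Psmb5 and Psmb7; heights are not comparable between genes, since they come from different probe sets.

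The constitutive catalytic subunits did not pass the test on the deposited scale either, including Psmb5 and Psmb6, whose promoters hold the antioxidant response match shown above. Psmb5, the chymotrypsin-like subunit that Psmb8 replaces, had signals of 1691 and 1600.9 with vehicle and 1626 and 1633 with imatinib. The arrays overlapped, and the log2 difference of -0.01 ± 0.09 became 0.15 when array medians were made equal. Psmb6, which encodes the caspase-like subunit that Psmb9 replaces, read 1285 and 1300.6 against 1372 and 1396, a separate but small difference of 0.10 ± 0.09. Psmb7, the trypsin-like subunit that Psmb10 replaces, read 323.8 and 198.5 against 243.2 and 151.5. Its arrays differed within each group by more than the groups did, and its difference of -0.35 ± 0.25 had a 95% interval from -0.91 to 0.21. Single arrays decided its size, which was -0.04 without vehicle replicate 1, -0.06 without imatinib replicate 2, -0.66 without vehicle replicate 2 and -0.64 without imatinib replicate 1. With the macrophage markers set equal all 3 were called lower (limma adjusted p = 0.00076 for Psmb5, 0.0032 for Psmb6 and 0.014 for Psmb7).

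Each inducible subunit was then compared with the constitutive one it replaces, as the difference between their log2 changes. For Psmb8 and Psmb5 this was 0.22. Relative to the vehicle mean of the pair's log2 ratio, the arrays read 0.06 and -0.06 with vehicle and 0.32 and 0.12 with imatinib. For Psmb9 and Psmb6 it was 0.04, with vehicle arrays at 0.01 and -0.01 and imatinib arrays at 0.06 and 0.01. For Psmb10 and Psmb7 it was 0.48, but the vehicle arrays at -0.32 and 0.32 spanned one imatinib array at 0.15, the other being 0.81. The two-sided exact permutation test over the 4 arrays gave p = 0.33, 0.33 and 0.67 (Benjamini-Hochberg over the 3 pairs 0.50, 0.50 and 0.67). With 2 arrays per group it cannot go below 0.33. A shift from constitutive to inducible subunits was therefore not shown, nor its absence.

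The inducible genes also lay within the range of the rest of the complex. The constitutive core, 15 genes, had a median log2 difference of 0.01 and a range from -0.47 to 0.21. Of these, Psma2 and Psmb2 reached at least the lowest inducible value (0.13). Psmb2, a non-catalytic beta subunit, was as far up as Psmb8, with signals of 1300.7 and 1187 against 1427 and 1462 and a difference of 0.21 ± 0.10 (limma adjusted p = 0.18). In the cap, 17 genes with a median of -0.0022 and a range from -0.49 to 0.26, only the lid gene Psmd8 did so (0.26 ± 0.13). Of all tested genes, 29.0% lay at or above the lowest inducible value.

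**Figure D3:**
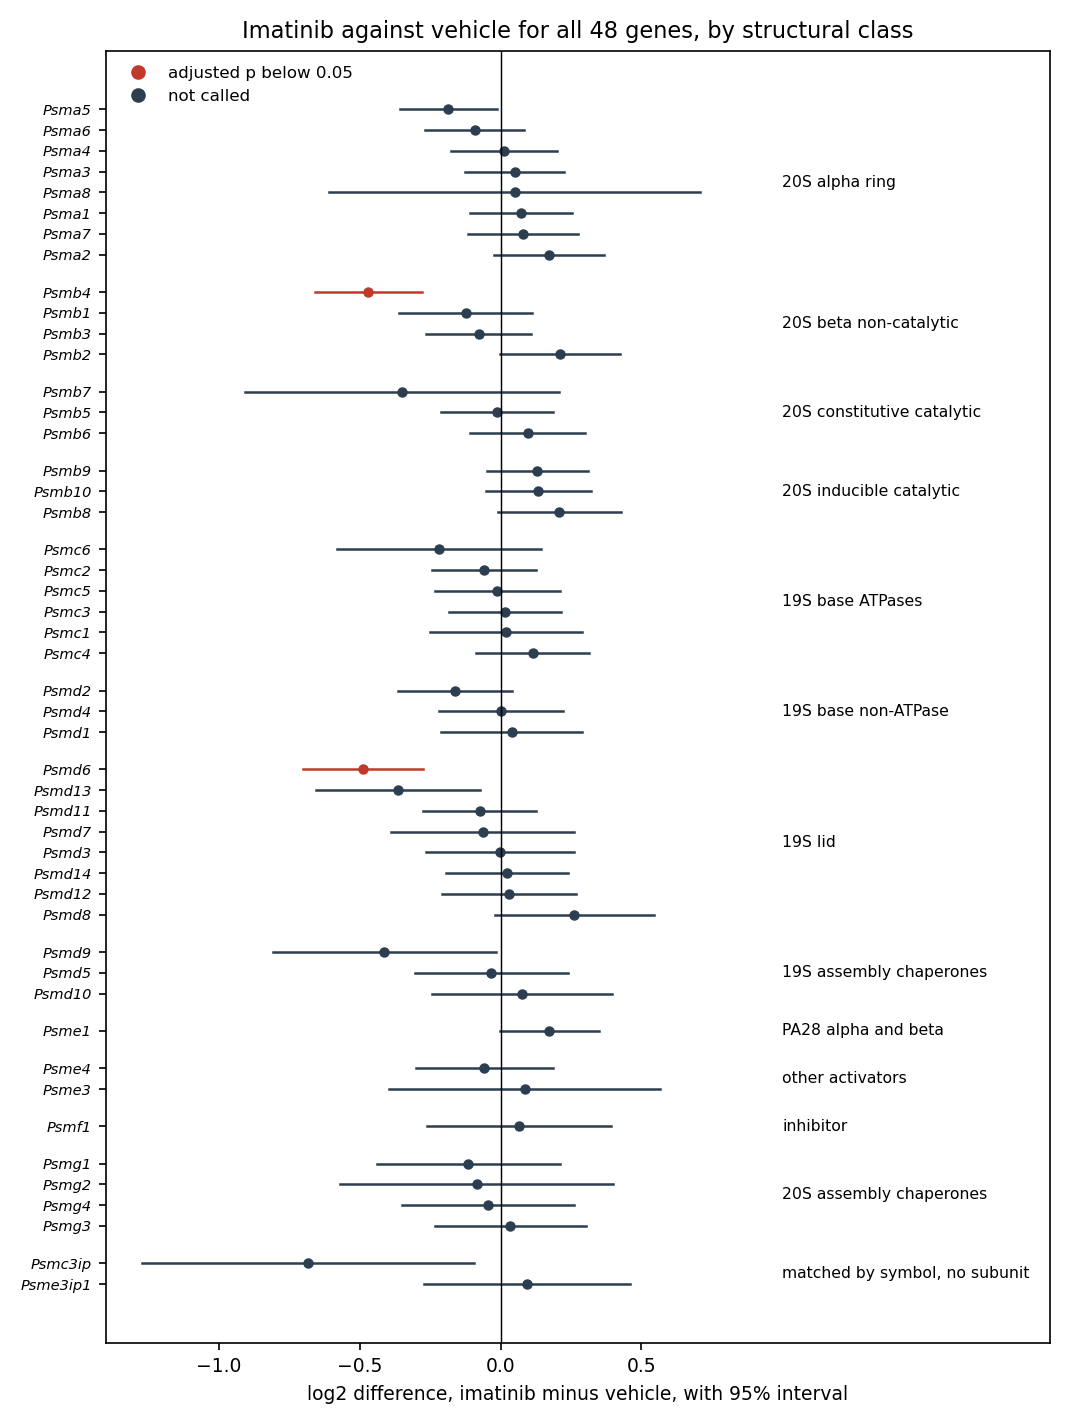
Log2 difference, imatinib minus vehicle (x axis, point), with its 95% interval from limma (line) for each of the 48 genes (y axis), grouped by structural class. Psmb4 and Psmd6 (red) are the 2 genes past the threshold; the intervals of the inducible catalytic genes and Psme1 lie mostly to the right of 0 and include it, and Psmc3ip passed the filter through the vehicle arrays alone.

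Within the core, the alpha ring genes, whose products form the gate, ranged from -0.18 for Psma5 to 0.17 for Psma2, and none of the 8 was called. Psma5 read 3795 and 3915 with vehicle and 3411 and 3364 with imatinib, which did not overlap (-0.18 ± 0.08; limma adjusted p = 0.15). A dimmer Psma5 probe set gave 0.05. Of the 4 non-catalytic beta genes, Psmb4 was called, Psmb1 (-0.12) and Psmb3 (-0.08) had overlapping arrays, and Psmb2 is given above. In the cap, the 6 ATPases of the base (Psmc1 to Psmc6), which unfold the substrate, ranged from -0.22 for Psmc6 to 0.11 for Psmc4. The base scaffold genes Psmd1 (0.04) and Psmd2 (-0.16) and the ubiquitin receptor gene Psmd4 (0.0020) were not called. Of the 8 lid genes, Psmd6 was called. The gene for the deubiquitinase of the lid, Psmd14, was at 0.02, and Psmd13 at -0.36 ± 0.13 (limma adjusted p = 0.091).

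None of the genes around the complex was called. The assembly chaperones of the core (Psmg1 to Psmg4) lay between -0.11 and 0.03, and all 4 had overlapping arrays. Of the chaperones of the base, Psmd5 (-0.03) and Psmd10 (0.08) overlapped between groups, and Psmd9 was at -0.41 ± 0.18 (limma adjusted p = 0.16). The nuclear activator gene Psme3 (0.09), the activator gene Psme4 (-0.06) and the inhibitor gene Psmf1 (0.07) were not called. Psmc3ip, which encodes a factor of meiotic recombination and no subunit, had signals of 116.3 and 105.2 with vehicle and of 55.2 and 58.4 with imatinib, the latter below the filter. Psme3ip1 was at 0.09. Across all 48 genes the arrays of the groups did not overlap for 20, with 11 higher and 9 lower (8 without Psmc3ip), where 56.0% of all tested genes did not overlap (26.1% higher and 29.9% lower).

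Both called decreases rested on 1 of 2 probe sets. Psmb4 encodes a non-catalytic beta subunit. Its brightest probe set, of a type whose probes can also match other transcripts, read 5664 and 5160.4 with vehicle and 4093 and 3709 with imatinib, a difference of -0.47 ± 0.09 (limma adjusted p = 0.0035). The second probe set of Psmb4 read 2719 and 2813 against 2605 and 2648. It was lower without overlap but by only -0.07 ± 0.08 (limma adjusted p = 0.64 over probe sets). Psmd6 encodes a lid subunit, and its brightest probe set fell from 2264 and 2023 to 1464 and 1572, a difference of -0.49 ± 0.10 (limma adjusted p = 0.0054). Its second probe set read 949.6 and 1002 with vehicle and 1012 and 1030.4 with imatinib, which is higher by 0.06 ± 0.10 (limma adjusted p = 0.76 over probe sets). The 95% intervals of the 2 probe sets did not overlap for Psmb4 (-0.66 to -0.28 and -0.26 to 0.11) or for Psmd6 (-0.70 to -0.27 and -0.17 to 0.29). With array medians set equal neither gene was called (limma adjusted p = 0.12 for Psmb4 and 0.094 for Psmd6).

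Other members also differed between probe sets. The 48 genes had 73 tested probe sets, and 17 genes had more than 1, of which 7 moved the same way on all and 10 in both directions. Tested one by one over 12484 probe sets, 1 probe set of a member was higher and 5 were lower, beside 6.10% and 7.42% of all probe sets. Besides those of Psmb4 and Psmd6, the lower ones were second probe sets of Psmb1 (-0.72 ± 0.16, while its brightest gave -0.12), Psmd13 (-0.49 ± 0.12, brightest -0.36) and Psmd9. The one of Psmd9 read 195.7 and 130.2 with vehicle against 76.2 and 39.6, and passed the filter through the vehicle arrays alone, so nothing is drawn from its call. For Psmd13 the arrays of the groups did not overlap on either probe set. They read 707.8 and 679.5 with vehicle and 471.7 and 500.4 with imatinib for the second probe set, and 933.1 and 859.6 against 777.5 and 609.9 for the brightest. The higher one was the third of 5 tested probe sets of the lid gene Psmd11 (0.54 ± 0.16), whose brightest gave -0.07.

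**Figure D4:**
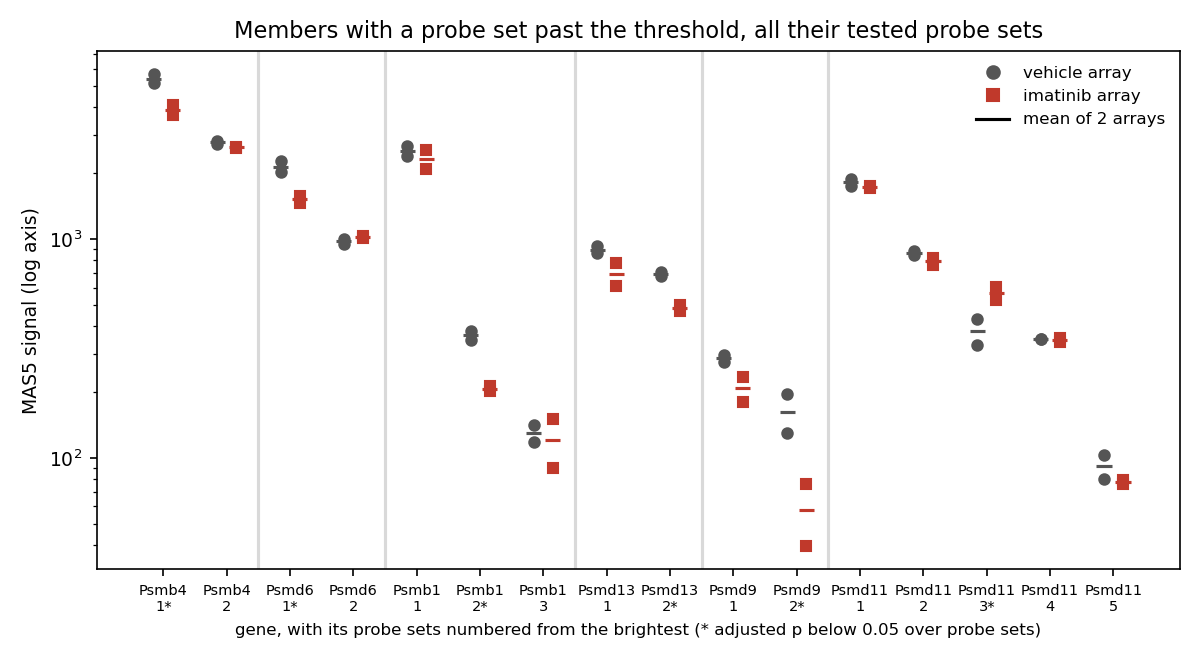
MAS5 signal (log axis, y) on vehicle arrays (grey circles) and imatinib arrays (red squares), with a bar at the mean of 2 arrays, for each tested probe set of the 6 members that have one past the threshold (asterisk), numbered from the brightest (x axis). Psmd13 has lower imatinib signals on both probe sets, whereas the second probe sets of Psmb4 and Psmd6 show little or no decrease; the second of Psmd9 is below the filter on the imatinib arrays.

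Among genes that act with the proteasome, 19 partners were tested (ubiquitin receptors, deubiquitinases, assembly and regulatory factors). Of these 2 were higher (10.5%) and 0 lower, beside 6.80% and 8.73% of all tested genes, with a median log2 difference of 0.05. Nfe2l2, a stress-activated transcription factor that can induce proteasome genes, read 7195 and 7404 with vehicle and 9069.9 and 8991 with imatinib (1.24-fold, limma adjusted p = 0.015). Akirin2, a factor needed for import of proteasomes into the nucleus, rose 1.26-fold (limma adjusted p = 0.021). On the macrophage-marker scale both were negative (-0.20 and -0.17). Nfe2l1, the factor that raises subunit genes when proteasome activity falls short, was at 0.03 ± 0.14, and Pomp, which matures the core, at 0.04 ± 0.08.

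In the class I pathway that uses proteasome products, 2 of 12 tested genes were higher (16.7%, beside 6.80% of all tested genes) and 0 lower (beside 8.73%), with a median of 0.08. These were Pdia3, a thiol oxidoreductase of the peptide-loading complex (1.35-fold), and the nonclassical class I gene H2-M3 (1.43-fold). On the macrophage-marker scale Pdia3 was at -0.07 and H2-M3 at 0.0077. By RefSeq order on chromosome 17, Tap1 lies between Psmb9 and Psmb8, and Tap2 follows Psmb8. These 2 genes encode the peptide transporter and were not called: Tap1 was at 0.01 ± 0.09 and Tap2 at -0.03 ± 0.10, both with overlapping arrays.

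Of 29 interferon receptor, signalling and response genes, 6 were higher (20.7%, beside 6.80% of all tested genes) and 0 lower (beside 8.73%), with a median of 0.08. Irf1, a transcription factor that induces immunoproteasome genes, read 2281 and 2364 with vehicle and 2889 and 2766 with imatinib (1.21-fold, limma adjusted p = 0.044), which is -0.22 on the log2 macrophage-marker scale. The largest increases were in Ciita, the activator of class II genes (log2 difference 0.58), and the kinase gene Jak1 (1.42-fold). The receptor gene Ifnar2 (1.34-fold) and the GTPase gene Gbp3 (1.32-fold) followed. On the macrophage-marker scale Ciita was at 0.08, Jak1 at 0.0054, Ifnar2 at -0.08 and Gbp3 at -0.11. Ifng itself was dim, with signals of 92.5 to 134.6, and overlapped between groups. Nlrc5 was not analysed here.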

How the data were processed

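The deposited table holds linear signal intensities that the authors computed with MAS5 (Affymetrix Expression Console), according to the submitters' processing notes, with no version, setting or detection call in the sources used here. MAS5 subtracts local background and brings every array to one mean (500.3 on all 4 after trimming 2% at each end), so a change in abundant transcripts shifts all others.

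After log2(signal + 32), the brightest probe set with 1 symbol stood for its gene, and genes from the 40th percentile of non-control probe sets upwards were tested (8145). All 48 members matched RefSeq (GRCm38.p6) by Entrez ID. The test was two-sided, by limma 3.58.1 in R 4.3.3 (lmFit; eBayes with trend; Benjamini-Hochberg; threshold 0.05). Alternatives covered pseudocount, filter, scaling, probe sets, prior, treat, block and arrays left out. Per-array values were given for Psmb5 to Psmb10, Psme1 and called members, and context genes were named when called (up to 4 per list) or set by name. Psma2, Psma5, Psmb2, Psmd8, Psmd9, Psmd13, Psmc3ip, Itgam, Cldn4, Flt3, Ctss, Mertk and the probe sets shown were singled out after their values were seen. Members, lists and tests were chosen with earlier results of these data known. The lists without a result in the text gave 4 of 6 fibroblast markers and 1 of 2 GIST markers lower. Higher were 1 of 6 T and NK, 1 of 3 B and 2 of 4 dendritic markers. The dendritic marker Flt3 (mean signal 48.5 with vehicle, 141.8 with imatinib) passed the filter through the imatinib arrays alone. It could only come out higher, so nothing is drawn from its call. Figures used Python 3.11.15 and matplotlib 3.10.9.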

Additional observations from a re-analysis of the deposited data

How the results depend on the processing

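The number of members called higher was 0 under every alternative run except each probe set on its own, where 1 (Psmd11) had a higher probe set. The number called lower, 2 as reported, was 0 with array medians set equal and 0 with limma's treat against 1.2-fold, 1 without the variance trend (Psmc3ip, above the filter through the vehicle arrays alone), 1 without probe sets that may hit several transcripts (Psmb1), 5 with each probe set on its own and 45 with macrophage markers set equal. Of all tested genes, 6.04% were called lower with array medians set equal, 4.57% with treat and 6.35% without the variance trend. The share was 7.96% without probe sets that may hit several transcripts, where 39 members were tested. It was 70.1% with macrophage markers set equal, and 7.42% of all probe sets tested on their own. With the mean of probe sets, 46 members were tested and 7.41% of all tested genes were called lower. The number of members called lower was 3 there (Psmb4, Psmd13 and Psmd9, whose mean includes the probe set below the filter with imatinib). With each array left out in turn it was 2 to 4, and the 4 came without imatinib replicate 1, which added Psmc6 and Psmd13; each such fit has 1 array in a group, which is assumed to vary like the other group, so these counts say little about stability. The pair differences kept their sign when an array was left out, from 0.12 to 0.32 for Psmb8 and Psmb5, 0.01 to 0.06 for Psmb9 and Psmb6 and 0.15 to 0.81 for Psmb10 and Psmb7. For Psmb8 and Psmb5, and for Psmb9 and Psmb6, this sign was fixed in advance. Both imatinib arrays lay above both vehicle arrays there, so it is no sign of stability. With quantile normalization the pair difference was 0.21 for Psmb8 and Psmb5 and 0.37 for Psmb10 and Psmb7. For Psmb9 and Psmb6 it fell to 0.0023. Signs reversed with macrophage markers set equal for Psmb8 (-0.30), Psmb9 (-0.37), Psmb10 (-0.37), Psme1 (-0.33) and Psmb6 (-0.41), with array medians set equal for Psmb5 (0.15), and without probe sets that may hit several transcripts for Psmd6 (0.064). Psmb5 ranged from -0.053 to 0.025 with an array left out, and was positive without vehicle replicate 1. Of 160 values of single genes under an alternative, 142 kept their direction and side of the threshold. Changes of filter, variance trend, prior, treat and block cannot alter a log2 difference, so this count says little about robustness. The replicate number in the titles as a block left 2 members lower (Psmb4 and Psmd6) and 0 higher; same-numbered arrays did not deviate together (r = -0.06 across probe sets). Only 2 arrays per group, and dim signals near the filter, limit what could be seen.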
